A study of Mus musculus with 9 samples.

Results

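The extracellular matrix genes described here encode the collagens and a set of proteins that assemble around them. Members were chosen by symbol: every gene whose name has the form of a collagen chain (Col, a number, a, a number), together with Bgn, Dcn, Lum, Fmod, Sparc, Fn1, Lox, Postn, Tnc, Eln, Lama4, Lamb1, Lamc1, Nid1 and Hspg2. The rule also lists Fbn1, which was not analysed here. The rule found 57 members among the 18193 genes with a probe set of their own, 42 of them collagen genes and 15 others. A probe set is a group of short array probes read as 1 value, and where a gene had several the brightest on average was used. The rule itself uses names and mean levels over all arrays, not the difference between groups. Its list of genes was drawn up with earlier results of these data known.

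RNA of frozen spleen tissue was hybridised to Affymetrix mouse arrays, 1 for each sample. The 4 control samples are healthy spleens of wild-type mice, and the 5 others are lymphomas in the spleens of mice with the Sca1-MALT1 transgene. MALT1 is a protease and scaffold of antigen receptor signalling to NF-kB, and the series title presents the line as a model of human MALT lymphoma. The comparison asks how lymphoma-bearing spleen of this line differs from healthy spleen. Sca1 is an antigen of blood stem and progenitor cells, also named Ly6a, and the name of the line joins it to MALT1. The labels give neither strain nor age nor the makeup of the transgene. They also do not say that each sample is another animal, so the p-values describe the spread between these samples, which may be technical.

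Collagens are triple-helical proteins made by fibroblasts, smooth muscle, endothelium and other stromal cells. Fibrillar collagens form the tensile fibres of the splenic capsule and trabeculae, whereas type IV collagen and laminin form the basement membranes around vessels and sinuses. In the white pulp, reticular cells wrap fibres of collagen and basement membrane proteins into conduits that carry small molecules. Small leucine-rich proteoglycans bind collagen fibrils and regulate their width, and lysyl oxidase crosslinks them.

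A single matrix gene passed the test. Col5a2, a chain of the type V collagen that nucleates and limits fibril growth, rose 1.98-fold in lymphoma. Here a gene is called when its limma p, adjusted by Benjamini and Hochberg over all 18193 genes, is under 0.05. By this rule 1 of the 57 members was called higher, where 0.407% of all genes were, and 0 were called lower, where 0.308% of all genes were. The unadjusted limma p was under 0.05 for 8 members that were higher (6.69% of all genes) and 2 that were lower (8% of all genes). A test with unequal variances called 0 members and 0 genes in all. The median log2 difference, lymphoma minus wild-type, was 0.038 over the 57 members and 0.0012 over all genes, and 31 members had a positive and 26 a negative difference. Among the 27 members whose mean level lay above the median of all genes, 18 (66.7%) were positive and the median was 0.14, where 43.2% of all genes at such levels were positive and their median was -0.038. No test was made of either median.

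The groups did not overlap for 6 members. In Col5a2, Bgn, Col4a1, Col4a2 and Lox all 5 lymphomas lay above all 4 wild-type spleens (5 of 57, where 3.29% of all genes did so). In Col20a1 all lay below (1 of 57, where 4.04% of all genes did so). This holds for the probe set used for each gene. On every other probe set of Col5a2, Col4a1, Lox and Col20a1 the groups overlapped. Members differed more among lymphomas than among wild-type spleens: the SD was larger among lymphomas for 44 of 57 members (77.2%), close to the share for all genes (78.9%). The median SD of a member was 0.25 among lymphomas and 0.15 among wild-type spleens, against 0.20 and 0.11 over all genes. In 30 members the mean level lay below the median of all genes (log2 7.83). RMA can compress differences at low levels, and how far it did so in these members was not measured. All levels below are deposited log2 values and all differences are lymphoma minus wild-type on that scale. In whole tissue, fewer cells of a type and less RNA per cell cannot be told apart.

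**Figure D1:**
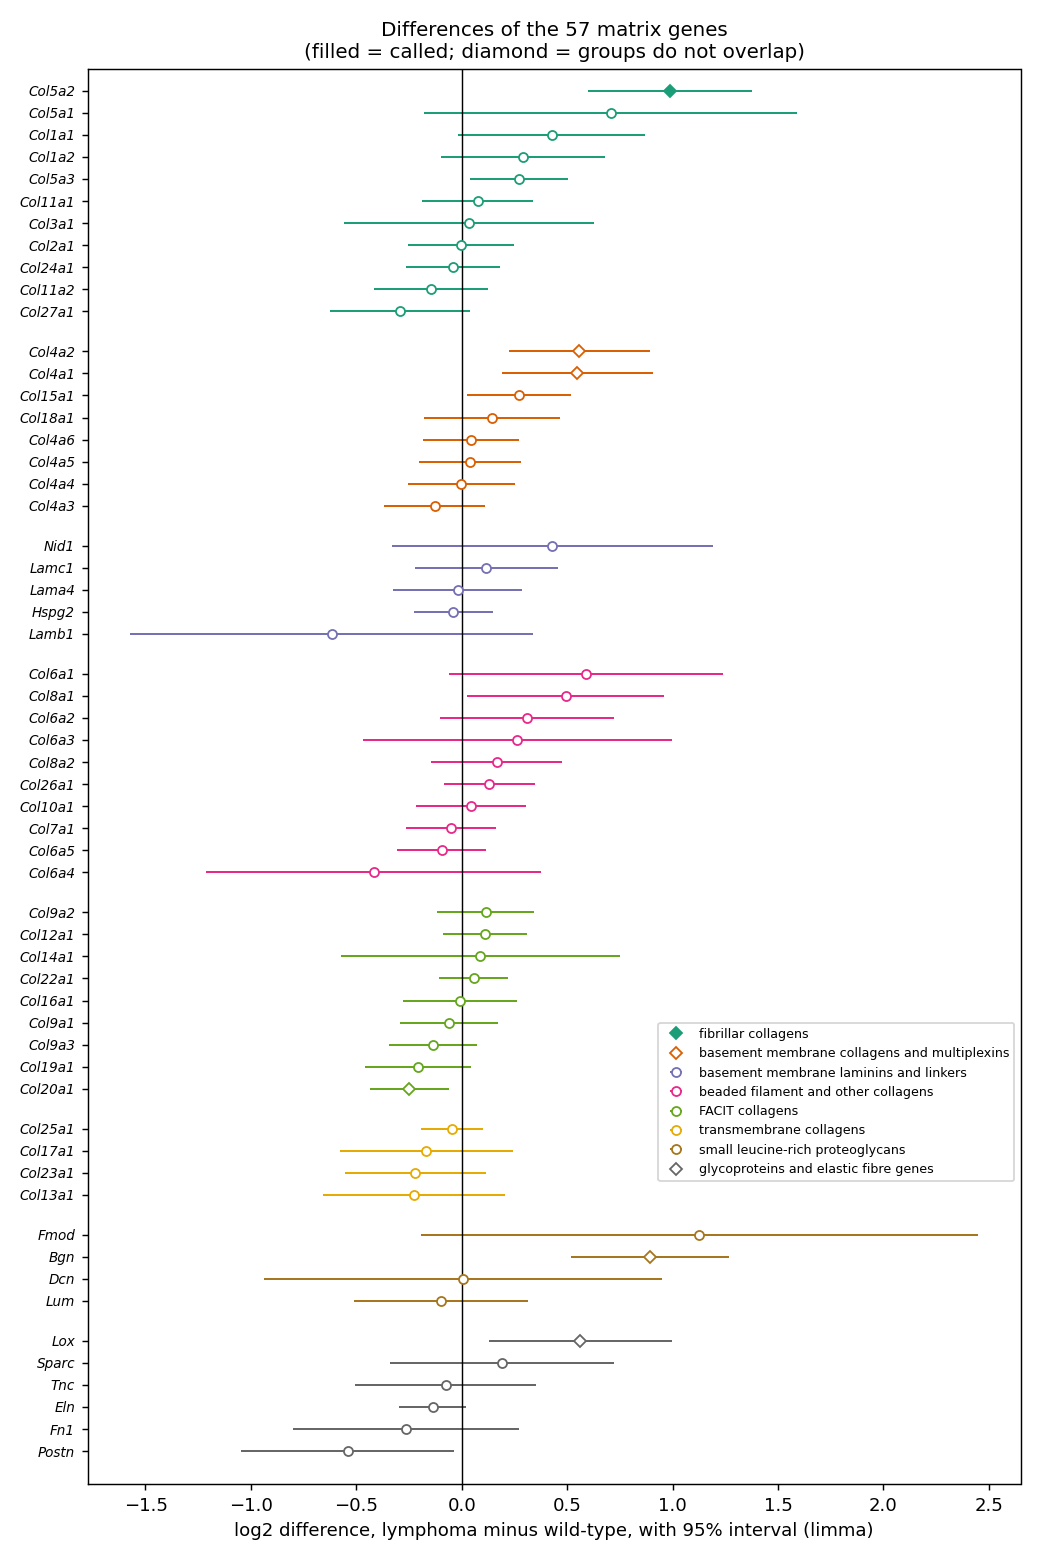
The log2 difference of each of the 57 matrix genes, lymphoma minus wild-type, with its 95% interval from limma (x axis), grouped by role. Col5a2 is the 1 filled, called gene at 0.99, diamonds mark the 6 members whose groups do not overlap, and the widest interval, that of Fmod, runs from -0.20 to 2.45.

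Among the 11 fibrillar collagen genes, Col5a2 was the 1 called. It stood at 8.87, 9.05, 9.02 and 8.99 in wild-type spleens 1 to 4 and at 9.99, 9.41, 10.27, 10.33 and 9.84 in lymphomas 1 to 5. Lymphoma 2 was the lowest of the 5 and still lay above every wild-type spleen. The difference was 0.99 (SE 0.17, 95% interval 0.60 to 1.38, limma adjusted p 0.0415). The mean over both probe sets of the gene gave 0.77, with an adjusted p of 0.172. Leaving out any single array kept the difference between 0.90 and 1.13. The call held only without lymphoma 2 (limma adjusted p 0.00586) and ended without any of the other 8 arrays (limma adjusted p 0.0559 to 0.153). Calls over all genes changed as well. Their share was 0.715% on all arrays, 0.055% to 0.198% without 1 wild-type spleen and 0.187% without lymphoma 5. It was 0.687% to 1% without lymphoma 1, 3 or 4, and 1.8% without lymphoma 2.

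Col5a1 encodes the partner chain of type V collagen. Its wild-type levels were 8.12, 7.98, 7.98 and 8.17, and its lymphoma levels 10.21, 9.05, 8.41, 8.03 and 8.16. Lymphomas 1 and 2 were high, and lymphomas 4 and 5 lay within the wild-type range. The difference of 0.71 (SE 0.39, limma adjusted p 0.453) was 0.13 without lymphomas 1 and 2 and 0.16 with the level of the erythroid marker list as a covariate. That list averaged 11.40 and 11.04 in lymphomas 1 and 2 and 6.12 to 8.36 in the others. The covariate therefore cannot tell erythroid content from other traits of lymphomas 1 and 2. A second Col5a1 probe set stood at 7.42, 7.42, 7.48 and 7.73 in the wild-type spleens and at 9.23, 8.10, 8.20, 7.92 and 7.65 in the lymphomas. There lymphomas 1 to 4 lay above the wild-type range, with a difference of 0.71 (limma adjusted p 0.286 over all probe sets). The third chain, Col5a3, differed by 0.27 (limma adjusted p 0.269).

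The major fibre-forming chains were not called. Col1a2, the second chain of type I collagen, stood at 11.47, 11.48, 11.42 and 11.72 in the wild-type spleens. In the lymphomas it stood at 11.50, 11.39, 12.26, 11.97 and 11.94, so lymphomas 3 to 5 lay above the wild-type range and lymphoma 2 below it. The difference of 0.29 (SE 0.17) had a limma adjusted p of 0.485. It was called under 1 of 22 alternatives, without lymphomas 1 and 2 (0.53, limma adjusted p 0.0408), where 3.3% of all genes were called. The dimmer probe sets of Col1a2 gave 0.15 and 0.099 (limma adjusted p 0.640 and 0.882 over all probe sets). Col1a1, the other type I chain, went from 7.80 ± 0.25 (SD, n = 4) to 8.22 ± 0.38 (SD, n = 5), and without lymphoma 1 its difference of 0.43 was 0.27. Col3a1, the chain of the type III collagen of reticular fibres, stood at 11.02 ± 0.20 (SD, n = 4) and 11.05 ± 0.57 (SD, n = 5). Its lymphoma values ran from 10.34 to 11.78, on both sides of the wild-type range. Col27a1, a fibrillar chain best known from cartilage, had the lowest difference of this role (-0.29, limma adjusted p 0.403). A second Col27a1 probe set, also above the median of all genes, gave -0.61 (limma adjusted p 0.164 over all probe sets). There all lymphomas (7.76 to 8.51) lay below the wild-type spleens (8.67 to 8.76).

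Col5a2 and Col3a1 are neighbours in the RefSeq gene table of GRCm38.p6, yet their differences were 0.99 and 0.036. In all, 8 pairs of members are neighbours among protein-coding genes of that table. Col4a1 and Col4a2 differed alike, at 0.55 and 0.56, and Col6a2 and Col6a1 stood at 0.31 and 0.59. In the other 5 pairs (Col9a1 and Col19a1, Col4a4 and Col4a3, Dcn and Lum, Col6a5 and Col6a4, Col4a6 and Col4a5) no gene was called.

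**Figure D2:**
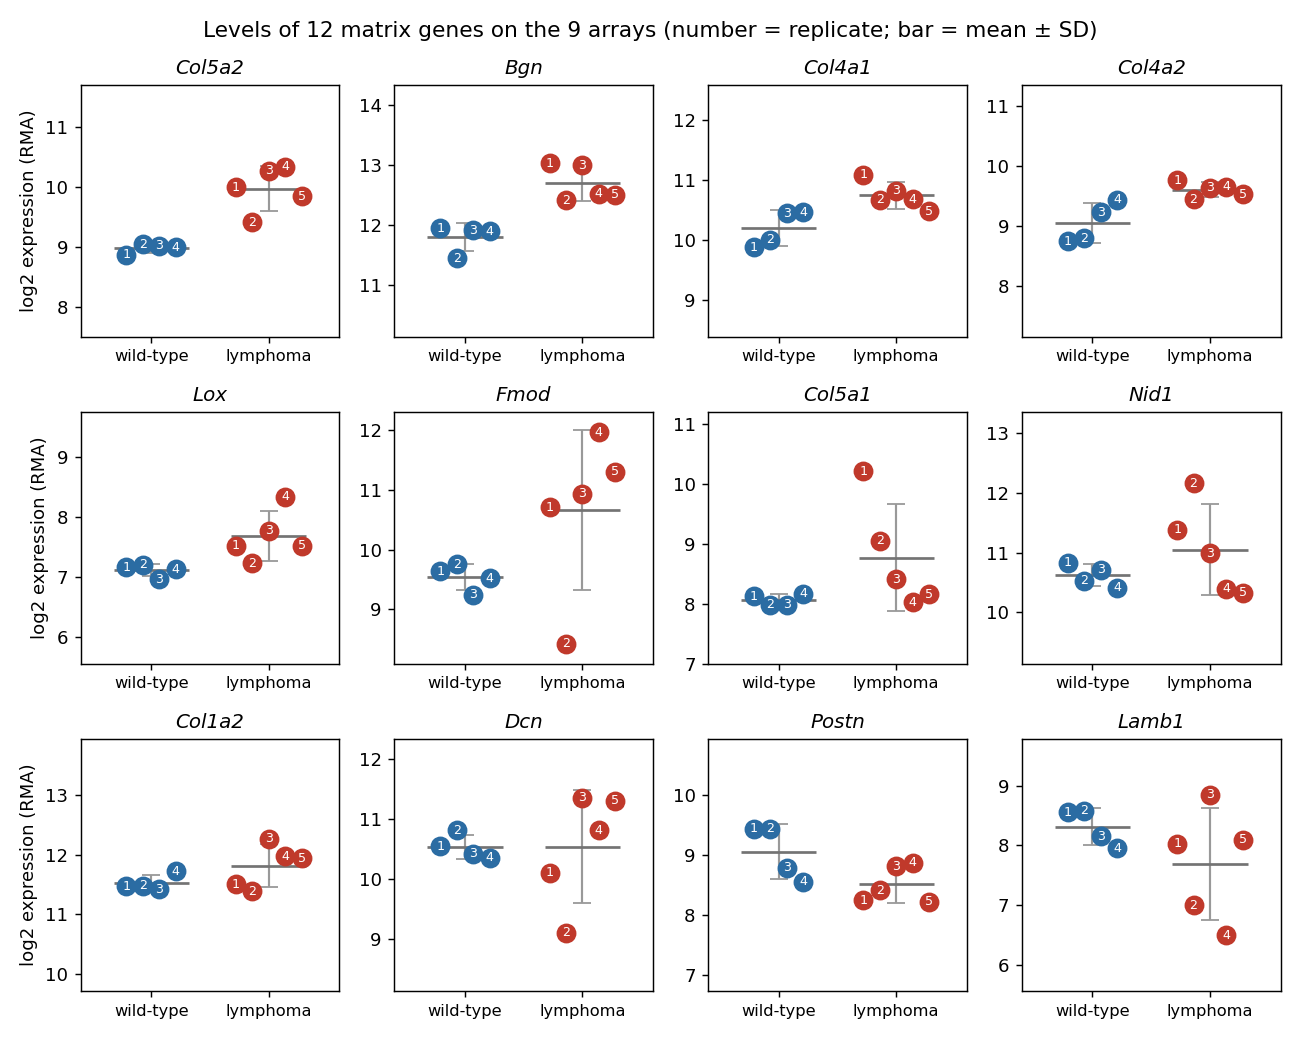
Deposited log2 levels (y axis, each panel spanning the same log2 range) of 12 matrix genes in 4 wild-type spleens (blue) and 5 lymphomas (red), numbered by replicate, with the mean and SD as bars. In Col5a2, Bgn, Col4a1, Col4a2 and Lox the lymphomas lie above the wild-type spleens, whereas Fmod, Dcn and Lamb1 spread over 2.25 to 3.53 log2 units among the lymphomas.

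Of the 8 basement membrane collagens 0 were called, 3 were higher at an unadjusted limma p under 0.05 and 0 lower. Col4a1 and Col4a2 encode the chains of the common type IV collagen network. Col4a1 stood at 9.89, 10.01, 10.45 and 10.47 in the wild-type spleens and at 11.10, 10.67, 10.83, 10.68 and 10.49 in the lymphomas. Col4a2 stood at 8.75, 8.79, 9.23 and 9.44 against 9.77, 9.45, 9.64, 9.66 and 9.53. In both genes wild-type spleens 1 and 2 were low, and wild-type spleen 4 came close to the lowest lymphoma. The differences of 0.55 (SE 0.16, limma adjusted p 0.168) and 0.56 (SE 0.15, limma adjusted p 0.136) were called under none of the 22 alternatives run for each. The annotated starts of this pair lie 21 bases apart on opposite strands.

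The other collagens of basement membranes differed less. Col15a1 (0.27, limma adjusted p 0.298) and Col18a1 (0.14, limma adjusted p 0.687) encode multiplexins of vessel basement membranes, the second being the source of endostatin. The chains Col4a3 to Col4a6, which are typical of kidney and other specialised membranes, lay between -0.13 and 0.044, and their mean levels were below the median of all genes.

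Laminins and their linkers gave 0 calls of 5, with 0 at an unadjusted limma p under 0.05. Nid1, which encodes nidogen, the bridge between laminin and type IV collagen, stood at 10.83, 10.53, 10.72 and 10.41 in the wild-type spleens. The lymphoma values were 11.38, 12.16, 10.99, 10.39 and 10.33, with lymphomas 1 to 3 above the wild-type range and lymphomas 4 and 5 below it. Its difference of 0.43 (limma adjusted p 0.604) was -0.049 without lymphomas 1 and 2 and -0.035 with the erythroid level as a covariate. Lamb1, a laminin beta chain, stood at 8.55, 8.58, 8.16 and 7.95 against 8.03, 7.0, 8.85, 6.50 and 8.09. Lymphomas 2 and 4 were low and lymphoma 3 was above every wild-type spleen, so its difference of -0.62 (SE 0.43) had a limma adjusted p of 0.549. The laminin chains Lamc1 (0.12) and Lama4 (-0.018) and the perlecan gene Hspg2 (-0.040) differed by less than their SD among lymphomas, and their 95% intervals lay between -0.32 and 0.45.

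The small leucine-rich proteoglycans include Fmod, with the largest difference among the members over all arrays, and Bgn, the second gene by limma p. Biglycan, the product of Bgn, binds collagen fibrils and can also signal to macrophages through Toll-like receptors. Bgn stood at 11.95, 11.44, 11.91 and 11.90 in the wild-type spleens and at 13.03, 12.41, 13.00, 12.52 and 12.50 in the lymphomas. The difference of 0.89 (SE 0.17, 95% interval 0.52 to 1.27) had a limma adjusted p of 0.0511, just short of the threshold. All 3 probe sets of Bgn gave differences between 0.82 and 1.0 with groups that did not overlap. Bgn passed under 7 of 22 alternatives, and its difference stayed between 0.77 and 0.96 in all of them. The list of 12 macrophage markers also had lymphomas (10.48 to 11.01) above wild-type spleens (9.47 to 9.76). In it 7 markers were called higher (0.407% of all genes) and 1 lower (0.308% of all genes). The part of this list in the values of Bgn and Col5a2 was not tested.

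Fibromodulin, the product of Fmod, regulates fibril assembly in tendon and other connective tissue. Fmod stood at 9.64, 9.75, 9.24 and 9.52 in the wild-type spleens, a range of 0.51. In the lymphomas it stood at 10.70, 8.43, 10.93, 11.96 and 11.30, a range of 3.53. Lymphoma 2 lay below every wild-type spleen and the other 4 lymphomas above all of them. Over all arrays the difference was 1.13 (SE 0.59, limma adjusted p 0.421), and without lymphoma 2 it was 1.69 (limma adjusted p 0.0195). Without lymphoma 4 it was 0.80 (limma adjusted p 0.503), less than the 0.90 of Col5a2 on the same arrays. All 6 probe sets of Fmod gave positive differences, from 0.87 to 1.13.

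Decorin and lumican belong to the same protein family. Dcn, which encodes decorin, a regulator of fibril width that also binds TGF-beta, stood at 10.54, 10.81, 10.42 and 10.36 in the wild-type spleens. The lymphomas stood at 10.11, 9.10, 11.36, 10.81 and 11.31, with lymphoma 2 the lowest as in Fmod and lymphomas 3 and 5 above the wild-type range. The means were equal within 0.0043, but the 95% interval ran from -0.94 to 0.95, so differences within that range were not excluded by these arrays. Without lymphoma 2 the difference was 0.36 (limma adjusted p 0.548), and without lymphomas 1 and 2 it was 0.63 (limma adjusted p 0.0771). A second, dimmer probe set of Dcn gave -0.27, with all lymphomas below the wild-type spleens (adjusted p 0.437 over all probe sets). Lum stood at 6.07 ± 0.28 (SD, n = 4) and 5.97 ± 0.33 (SD, n = 5), below the median of all genes.

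The stretches before the annotated starts of Bgn and Fmod are shown because these 2 proteoglycan genes have the largest differences of their role. Each is the 250 bases upstream of the start, 5′ to 3′ on the gene's strand (plus for both), from RefSeq on GRCm38.p6, at chrX:73483351-73483600 for Bgn and chr1:134037004-134037253 for Fmod. Capitals mark GC boxes, CCAAT boxes and TATA boxes.
Bgn: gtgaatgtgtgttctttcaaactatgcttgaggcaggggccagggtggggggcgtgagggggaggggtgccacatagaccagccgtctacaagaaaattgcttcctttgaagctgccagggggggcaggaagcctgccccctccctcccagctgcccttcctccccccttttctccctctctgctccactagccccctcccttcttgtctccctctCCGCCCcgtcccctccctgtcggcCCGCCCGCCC
Fmod: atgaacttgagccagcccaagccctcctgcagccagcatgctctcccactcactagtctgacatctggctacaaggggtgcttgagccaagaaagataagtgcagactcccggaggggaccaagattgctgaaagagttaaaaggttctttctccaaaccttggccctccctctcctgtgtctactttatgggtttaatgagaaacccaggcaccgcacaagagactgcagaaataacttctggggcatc
The motifs searched, on both strands, were GGGCGG (the GC box, CCGCCC on the other strand), CCAAT and TATAAA, none of which contains another. Bgn held 3 GC boxes, of which the last 2 share bases, and neither of the other motifs, and Fmod held 0 matches to any of the 3. Of the 57 members 41 have an entry in that table, and 25 of the 41 (61.0%) had a GC box before at least 1 start, against 35.4% of the 27025 genes in the table. CCAAT was found for 36.6% of these members and 37.5% of all genes, and TATAAA for 17.1% and 14.3%. These matches describe letters in a window, not bound sites.

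Type VI collagen forms beaded filaments between fibres and cells, and Col6a1, Col6a2 and Col6a3 encode its common trimer. Col6a1 stood at 8.77, 7.80, 8.88 and 8.89 in the wild-type spleens and at 9.14, 8.49, 9.66, 9.02 and 9.57 in the lymphomas. Wild-type spleen 2 and lymphoma 2 were the low values of their groups. The difference was 0.59 (SE 0.29, limma adjusted p 0.388), and 0.33 without wild-type spleen 2. Col6a2 differed by 0.31 (limma adjusted p 0.479) and Col6a3 by 0.26 (limma adjusted p 0.757), and that of Col6a3 was -0.053 without lymphomas 1 and 2. Col6a4, a chain of other type VI trimers, stood at 9.51, 9.58, 8.03 and 8.34 in the wild-type spleens, where the first pair was high, and at 7.94 to 8.95 in the lymphomas (difference -0.42, limma adjusted p 0.629). Of the 10 measured genes of this role, which adds types VII, VIII, X and XXVI, 0 were called and 1, Col8a1 (0.49), was higher at an unadjusted limma p under 0.05.

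FACIT collagens sit on the surface of fibrils, and transmembrane collagens anchor in cell membranes. Of the 9 FACIT genes 0 were called and 1, Col20a1, was lower at an unadjusted limma p under 0.05. Its levels of 7.24, 7.33, 7.30 and 7.48 in the wild-type spleens were just above 7.02, 7.04, 7.23, 7.18 and 6.98 in the lymphomas (difference -0.25, limma adjusted p 0.217). Col14a1, which encodes undulin of dense connective tissue, stood at 9.53 ± 0.18 (SD, n = 4) and 9.61 ± 0.65 (SD, n = 5). Lymphomas 1 to 3 (10.05, 10.37 and 9.77) were above and lymphomas 4 and 5 (8.90 and 9.00) below its wild-type range, and its difference of 0.089 was -0.31 without lymphomas 1 and 2. The 4 transmembrane collagen genes had differences between -0.23 and -0.045, with 0 called and 0 at an unadjusted limma p under 0.05, and all 4 lay below the median of all genes.

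Glycoproteins and elastic fibre genes gave 0 calls of 6. Lox, the lysyl oxidase that crosslinks collagen and elastin, stood at 7.16, 7.19, 6.96 and 7.13 in the wild-type spleens and at 7.51, 7.23, 7.77, 8.33 and 7.52 in the lymphomas. Lymphoma 2 was close to the wild-type range and lymphoma 4 farthest above it, and the difference was 0.56 (SE 0.19, limma adjusted p 0.227). Postn encodes periostin, which links matrix to integrins. It stood at 9.44, 9.44, 8.79 and 8.55 against 8.25, 8.42, 8.82, 8.88 and 8.23, with wild-type spleens 1 and 2 above all other arrays (difference -0.54, SE 0.23, limma adjusted p 0.306). Fn1, the fibronectin gene, stood at 10.47 ± 0.079 (SD, n = 4) and 10.20 ± 0.53 (SD, n = 5), and without lymphomas 1 and 2 its difference of -0.27 was -0.015.

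Sparc, which encodes osteonectin, a collagen-binding protein of stromal cells and platelets, had its spread in the other group. The wild-type spleens stood at 10.53, 10.13, 11.23 and 11.41 and the lymphomas at 10.90, 11.11, 11.15, 10.94 and 10.98. All 5 lymphomas lay inside the wild-type range, and the difference was 0.19 (SE 0.24, limma adjusted p 0.757). A second Sparc probe set, also above the median of all genes, gave 0.30 (limma adjusted p 0.341 over all probe sets). There lymphomas 1, 2 and 5 (10.07, 10.02 and 10.19) lay above the highest wild-type spleen (10.01). The platelet marker list split the wild-type spleens the same way as Sparc (8.28, 8.09, 9.01 and 8.96), as did the endothelium list (7.85, 7.87, 8.17 and 8.31). Among the lymphomas the platelet list ran from 7.82 to 11.41 and the endothelium list from 7.74 to 8.47, where Sparc ran from 10.90 to 11.15. The part of both lists in the Sparc values was not tested. Eln, the elastin gene, differed by -0.14 (limma adjusted p 0.410).

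Of the 57 members 17 had 1 probe set and 40 had several, 120 probe sets in all. The sign of the difference was the same on all probe sets of 28 of the 40 genes and differed in 12, and 79 of the 120 probe sets lay below the median of all genes. With all 45037 probe sets tested together, 1 of the 120 was called, that of Col5a2, where 0.486% of all probe sets were called. The second Col5a2 probe set is dimmer and differed by 0.55 (limma adjusted p 0.439 over all probe sets). There the groups overlapped, and lymphoma 2 (6.28) lay below every wild-type spleen (6.57 to 6.74). The probe sets of Lamb1 disagreed in sign, since the dim ones gave 0.011, -0.34 and 0.13 against -0.62.

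**Figure D3:**
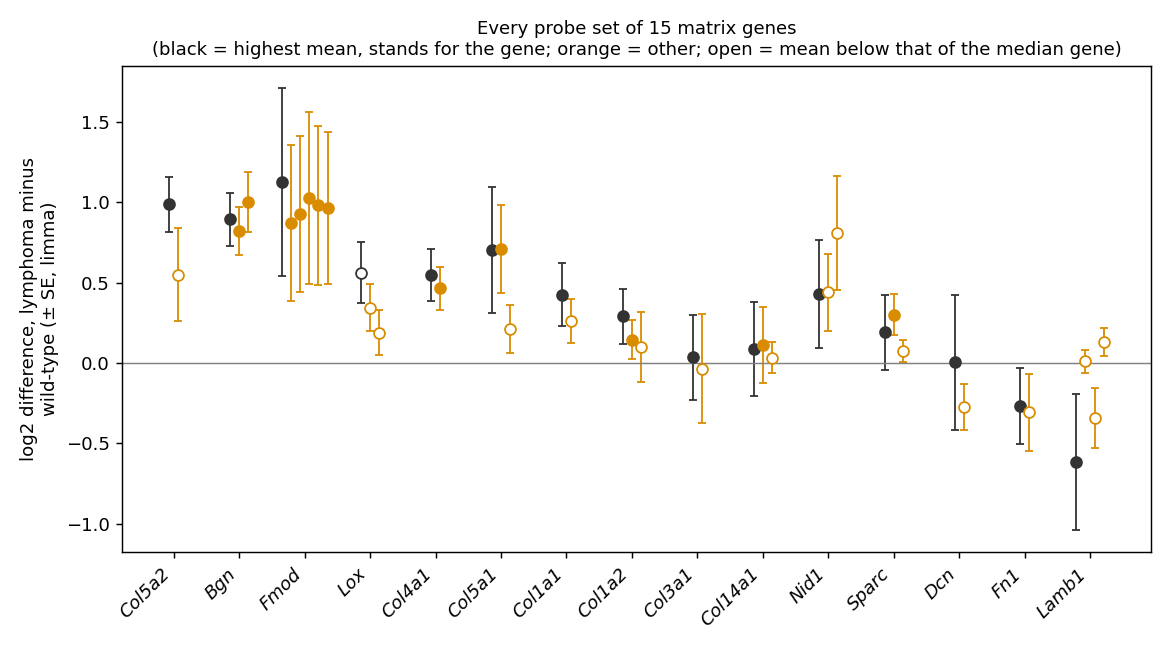
The log2 difference (y axis, ± SE from limma) of every probe set of 15 matrix genes; black marks the brightest probe set, used for the gene, orange the others, and open symbols have a mean below that of the median gene. The 3 probe sets of Bgn (0.82 to 1.0) and the 6 of Fmod (0.87 to 1.13) lie close together, and those of Lamb1 lie on both sides of 0.

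Single lymphomas held the extreme values of many members. Lymphoma 1 was the highest of the 9 arrays for 13 members (22.8%, against 18.4% of all genes) and lymphoma 3 for 11 (19.3%, against 7.39%). Lymphoma 2 was the lowest for 13 (22.8%, against 18.9% of all genes) and lymphoma 3 for 3 (5.26%, against 7.38%). Without lymphomas 1 and 2 limma called 4 members higher (Bgn, Col1a2, Col5a2 and Fmod) and 0 lower, where 3.3% of all genes were called in either direction.

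Of 19 measured genes that fold, trim and crosslink collagen, 0 were called. At an unadjusted limma p under 0.05, 5 were higher and 1 lower, where 6.69% and 8% of all genes were; the same shares apply to the counts at this threshold in the lists below. The largest differences were those of Pcolce (0.69, limma adjusted p 0.233), whose product enhances the trimming of procollagen, and of its relative Pcolce2 (0.58, 0.471). In 5 of them, named after their values were seen, the groups did not overlap. All lymphomas lay above the wild-type range in 4 (3.29% of all genes) and below it in 1 (4.04% of all genes). Those above were the lysyl hydroxylase genes Plod1 (0.54) and Plod3 (0.34), the prolyl hydroxylation cofactor Crtap (0.34) and the procollagen proteinase gene Bmp1 (0.33). Colgalt1 (-0.38), which adds galactose to collagen, was the 1 below.

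Matrix proteases and their inhibitors gave 0 calls of 17. At an unadjusted limma p under 0.05, 7 were higher and 1 lower. Mmp3, the stromelysin gene, stood at 6.56, 6.50, 7.04 and 6.93 in the wild-type spleens and at 10.17, 7.07, 9.90, 9.42 and 9.19 in the lymphomas, with lymphoma 2 again the lowest of the 5. Its difference of 2.39 had a limma adjusted p of 0.0912. Mmp2, the gelatinase of fibroblasts, stood at 8.91, 9.00, 8.04 and 8.14 against 9.80, 9.60, 9.56, 10.38 and 9.74 (difference 1.29, limma adjusted p 0.0531). The inhibitor genes Timp1 (0.65, limma adjusted p 0.0516), Timp2 (0.59) and Timp3 (0.44) likewise had groups that did not overlap. All lymphomas lay above the wild-type range in 6 of the 17 (3.29% of all genes): Mmp2, Mmp3, Mmp8, Timp1, Timp2 and Timp3. All lay below it in 1 (4.04% of all genes), Mmp12 (-0.85, limma adjusted p 0.138). These inhibitors, Mmp8 and Mmp12 were named after their values were seen.

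Among matrix receptors 1 of 19 was called, and it was higher (0.407% of all genes). Itga9, an integrin alpha chain that binds tenascin and other matrix ligands, rose by 0.71, from 7.38 ± 0.063 (SD, n = 4) to 8.09 ± 0.27 (SD, n = 5), with a limma adjusted p of 0.0487. This call ended without any of the 4 wild-type spleens (limma adjusted p 0.147 to 0.165), where 0.055% to 0.198% of all genes were called. It also ended without lymphoma 4 (0.0626, with 0.687% of all genes called) or 5 (0.106, with 0.187%). Another 5 receptor genes were higher and 0 lower at an unadjusted limma p under 0.05.

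TGF-beta pathway genes, whose signal drives collagen transcription in fibroblasts, gave 0 calls of 16. At an unadjusted limma p under 0.05, 1 was higher and 1 lower. The largest differences were those of the matricellular genes Ccn2 (0.85, limma adjusted p 0.342) and Thbs1 (0.77, 0.371). Of 26 other matrix genes 0 were called, and 4 had an unadjusted limma p under 0.05, all higher. The largest differences were those of the elastic fibre gene Fbln5 (1.02, limma adjusted p 0.211) and of the proteoglycan gene Prelp (0.78, 0.444). The median difference was 0.31 for the folding list, 0.44 for the protease list, 0.17 for the receptors, -0.066 for the TGF-beta list and 0.12 for the other matrix genes.

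Stromal marker lists showed no call. Fibroblast and reticular cell markers (0 of 13 called, 2 higher at an unadjusted limma p under 0.05) averaged 8.48 to 8.79 in wild-type spleens and 8.52 to 9.00 in lymphomas, with Pdgfrb at 0.86 and Madcam1 at -0.77. Smooth muscle and pericyte markers (0 of 10, none at an unadjusted p under 0.05) averaged 8.46 to 8.58 and 8.31 to 8.92, with Tagln at 0.48 and Mylk at 0.26. Endothelium markers (0 of 12, 2 higher and 1 lower unadjusted) averaged 7.85 to 8.31 and 7.74 to 8.47, with Stab2 at 0.84 and Madcam1, which both lists hold, at -0.77. Capsule mesothelium markers (0 of 7, 1 higher unadjusted) averaged 5.59 to 5.79 and 5.57 to 6.16, with Krt18 at 0.64 and Krt8 at 0.36. Acinar pancreas markers (0 of 7, 1 higher unadjusted) averaged 6.03 to 6.26 and 6.23 to 6.66, with Cela1 at 1.38 and Cela2a at 0.19. Among 5 fat cell markers, which averaged 5.16 to 5.53 and 5.74 to 6.98, 1 was called higher (0.407% of all genes). This was Fabp4 (3.0, limma adjusted p 0.0431), which macrophages also express. It was called under 11 of 22 alternatives, and its difference ran from 1.66 to 3.31 over them. The call of Fabp4 ended without any of the wild-type spleens (limma adjusted p 0.0839 to 0.165), where 0.055% to 0.198% of all genes were called. It also ended without lymphoma 3 (0.0618, with 1% of all genes called) or 5 (0.0952, with 0.187%).

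Among the blood cell lists, 7 of 12 macrophage markers were called higher (0.407% of all genes) and 1 lower (0.308% of all genes). Of these C1qb (2.40), C1qc (2.34) and C1qa (1.93) rose and Marco fell (-1.64). Platelet and megakaryocyte markers averaged 8.09 to 9.01 in wild-type spleens and 7.82 to 11.41 in lymphomas. Of these 1 of 9 was called higher (0.407% of all genes), Clec1b at 1.67. Erythroid markers (0 of 10 called, none at an unadjusted p under 0.05) averaged 6.83 to 8.45 and 6.12 to 11.40, with Rhag at 2.36 and Kel at 2.14. B-cell markers (0 of 9, 4 lower unadjusted), which check the lymphoid identity of the tissue, averaged 12.34 to 12.46 and 10.99 to 12.09, with Fcer2a at -1.77 and Cr2 at -1.25. T-cell markers (0 of 8, 2 lower unadjusted) averaged 10.04 to 10.23 and 8.73 to 10.20, with Cd8b1 at -1.69 and Cd8a at -1.0. The part of these lists in the differences of single matrix genes was not tested. With the erythroid level as a covariate, limma called Col5a2 (1.16, adjusted p 0.0196) as the 1 member, and 0.654% of all genes. Without lymphomas 1 and 2, which have the highest erythroid levels, the Col5a2 difference was 1.17. The covariate therefore cannot tell erythroid content from other traits of these 2 lymphomas.

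**Figure D4:**
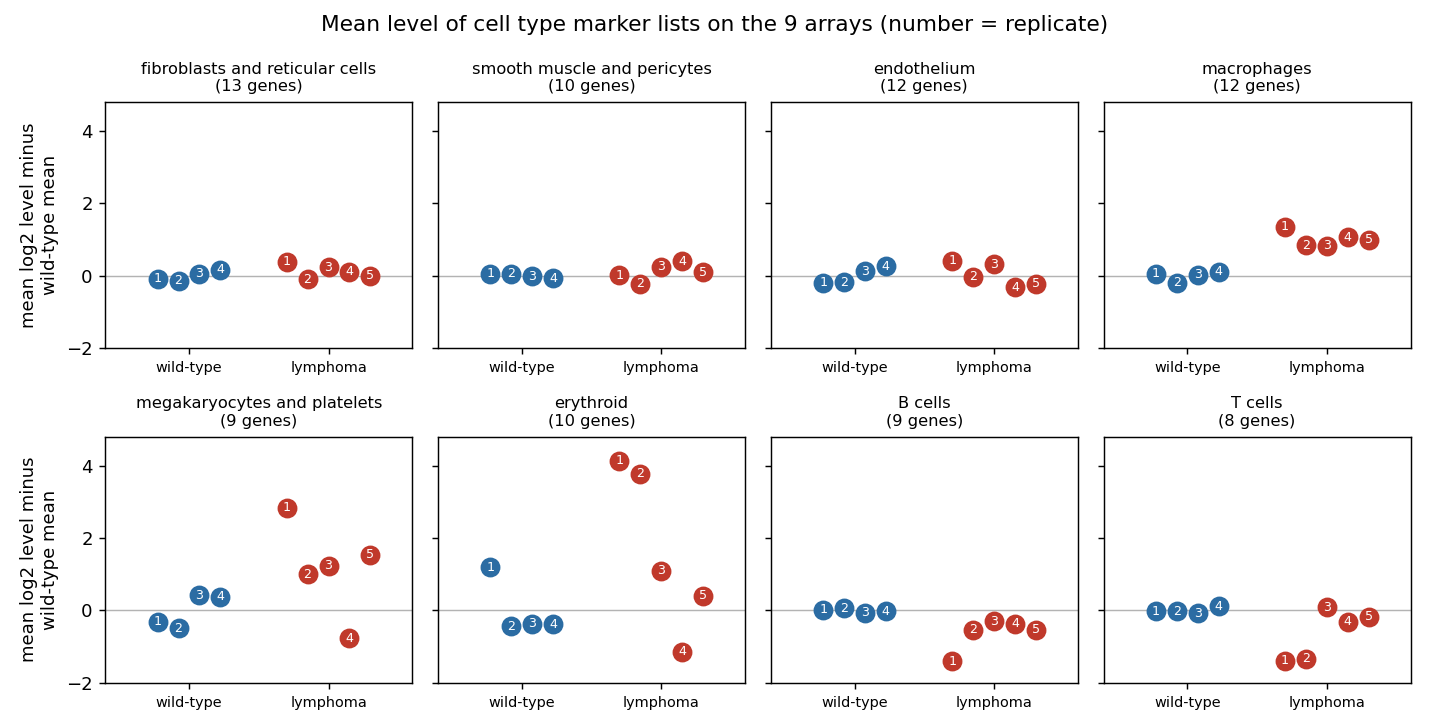
Mean log2 level of 8 cell type marker lists on each array, less the wild-type mean (y axis), in wild-type spleens (blue) and lymphomas (red), numbered by replicate. The 3 stromal lists overlap between groups, the macrophage list lies higher in all 5 lymphomas (10.48 to 11.01 against 9.47 to 9.76), and lymphomas 1 and 2 carry the highest erythroid levels.

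**Figure D5:**
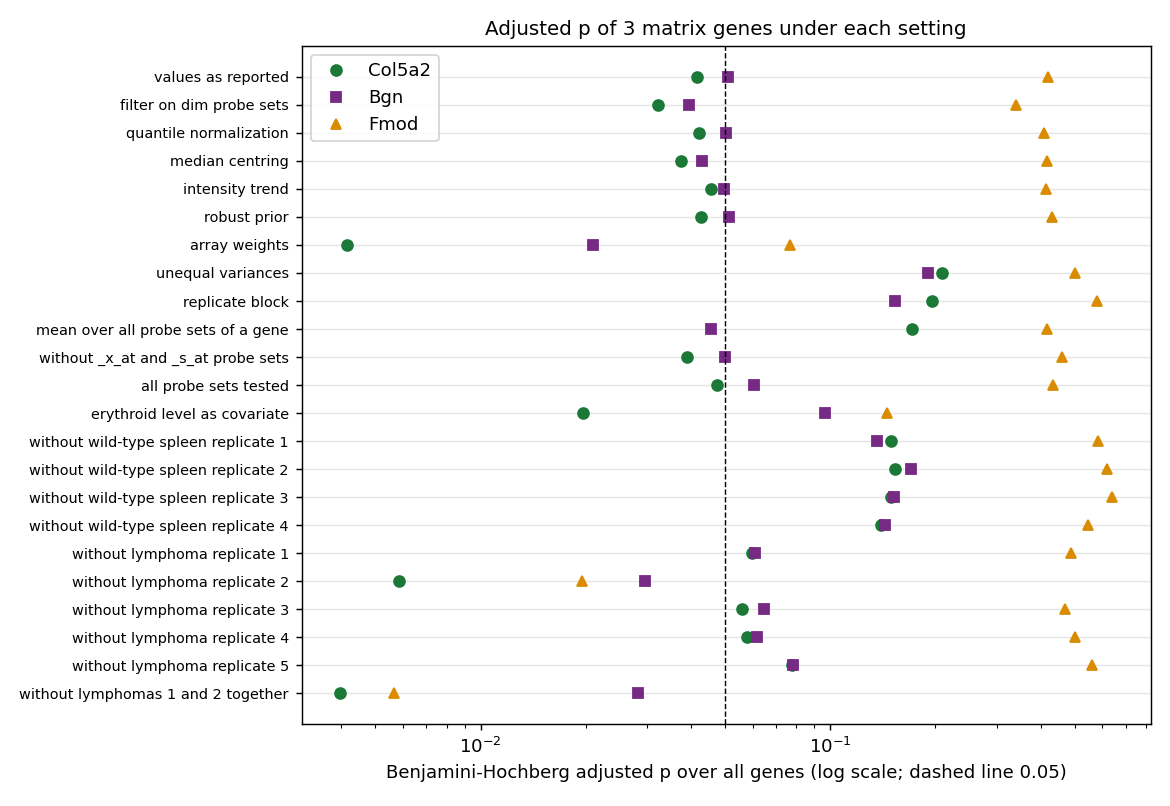
Adjusted p over all genes (x axis, log scale) of Col5a2, Bgn and Fmod with the values as reported and under each of 22 alternatives (y axis). Col5a2 passes 0.05 under 11 of the 22, Bgn under 7 and Fmod under 2, both of which leave out lymphoma 2.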

How the data were processed

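The deposited values are log2 expression levels, made by the authors with RMA according to the submitters' processing notes (version and settings not given in the sources used here). This method corrects background, normalizes between arrays and summarises probes. The authors' values were used unchanged. Of 45101 probe sets, 64 Affymetrix controls were left out. Names came from GEO's platform annotation, and all 57 members matched RefSeq (GRCm38.p6) by symbol and gene ID. No array pair was identical. The number of arrays limits the precision.

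Differences between the 5 lymphomas and 4 wild-type spleens come from limma 3.58.1 (R 4.3.3, lmFit, then eBayes, no covariate, two-sided, adjusted over 18193 genes), after a test on simulated data. Figures used matplotlib 3.10.9 in Python 3.11.15. Members and lists were chosen with earlier results of these data known. Named with values were called members, the 6 largest differences of either sign among members above the median of all genes, and a fixed list of members; Lox, Col20a1, Col5a3, Col8a1 and members named only in lists or pairs were added after their values were seen. Pathway and cell lists name called genes (up to 4) or the 2 largest differences. Lists got no set test. Alternatives covered filtering, normalization, the variance prior, array weights, unequal variances, a replicate block, other probe sets, an erythroid covariate and leaving out arrays.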

Additional observations from a re-analysis of the deposited data

Results flagged for a closer look

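Wild-type spleen 2 stood apart from the other wild-type spleens in 2 members, by the gap to the nearest spleen as a share of the group's range. Bgn stood at 11.44 in that spleen and at 11.90 to 11.95 in the other 3, and without it the difference was 0.77 (limma adjusted p 0.171). Leaving out wild-type spleen 2 left 0.055% of all genes called. Col6a1 stood at 7.80 there and at 8.77 to 8.89 in the others, and without it the difference was 0.33 (limma adjusted p 0.712). In all, 56 groups of values (28 genes in both groups of samples) were tested, and chance flags about 1 group in 20.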

How the results depend on the processing

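The count of 1 member called higher was 2 with a filter on dim probe sets, which kept 36 members, with median centring, with an intensity trend and with array weights, where Bgn joined Col5a2; 1.46%, 0.857%, 0.649% and 2.92% of all genes tested were called under these settings, against 0.715%. It was 0 with unequal variances and 0 with the replicate block, and 4 without lymphomas 1 and 2, where 3.3% of all genes were called. With the mean over all probe sets of a gene, Bgn was called in place of Col5a2. Leaving out 1 array gave counts of 0 to 3, the last without lymphoma 2, where 1.8% of all genes were called. Without 1 wild-type spleen the count was 0, and 0.055% to 0.198% of all genes were called. It was also 0 without lymphoma 1, 3, 4 or 5, where 0.901%, 1%, 0.687% and 0.187% of all genes were called. The count of members called lower was 0 under all alternatives, and the median difference stayed between 0.0072 and 0.062. Under the replicate block the median difference was 0.058. That block, in which lymphoma 5 adds nothing to the comparison, left 7 genes called in all; same-numbered arrays correlated at 0.12, -0.20, 0.14 and 0.0041 in their deviations from the group means, so the numbers were not taken to pair the samples. Signs changed under at least 1 alternative for Col14a1, Col3a1, Col6a3, Dcn, Hspg2, Lama4, Lamb1, Lum, Nid1 and Sparc, none of which was called.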
